A study of Mus musculus with 6 samples.

Results

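The genes described here are 10 repressors and inhibitors. They are Hes1, Hes5, Hey1, Hey2, Heyl and Nrarp of the Notch response and the inhibitors of DNA binding Id1, Id2, Id3 and Id4. They were chosen by name: a probe belonged to the set where its gene symbol in the comparison table of the series was one of the 10, and each gene had exactly 1 such probe. The table holds 27269 probes, and the fit used here tested 21067 genes and unnamed probes. RNA of the dorsal forebrain, described as dorso-medial pallium in the study's design, was measured on 1-colour arrays in 3 mutant and 3 control mouse embryos at E11.5, each embryo on an array of its own. The labels call the groups mutant and control and name neither the mutated gene nor any allele, promoter or Cre line, and the series title places the study in Wnt/beta-catenin signalling of cortical precursors. A mutant and a control came from each of litters 1, 2 and 3 and carry the number of their litter. Values of 3 embryos are given in the order of litters 1, 2 and 3.

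Notch receptors, once cut by gamma-secretase, send their intracellular part to the DNA-binding factor Rbpj, which then turns on the Hes and Hey genes. Hes and Hey proteins are basic helix-loop-helix repressors that shut off proneural genes such as Neurog2, and in the embryonic cortex they keep radial glia dividing. Nrarp, also induced by Notch, is an ankyrin-repeat protein that feeds back to limit Notch signalling. Id proteins have the helix-loop-helix domain but no basic region, so that they take E proteins away from proneural factors without binding DNA, and several Id genes respond to Bmp signals through Smad factors.

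Promoter sequences from RefSeq (GRCm38.p6) were at hand for 6 of the 10 genes, each with 250 bases before and 50 bases after the start of the gene. Those of Hes5 and Hey2 are shown because they hold the motif bound by Rbpj, and those of Id2 and Id3 because these are the Id genes whose groups separated most cleanly and whose mutants differed most from each other. The lines run 5′ to 3′ on the strand of the gene, and capitals mark TGGGAA (the Rbpj core), GGCGCC (a GC-rich Smad motif) and CACGNG (a site of Hes and Hey proteins), each on either strand.
Hes5, chr4:154960673-154960972, plus strand: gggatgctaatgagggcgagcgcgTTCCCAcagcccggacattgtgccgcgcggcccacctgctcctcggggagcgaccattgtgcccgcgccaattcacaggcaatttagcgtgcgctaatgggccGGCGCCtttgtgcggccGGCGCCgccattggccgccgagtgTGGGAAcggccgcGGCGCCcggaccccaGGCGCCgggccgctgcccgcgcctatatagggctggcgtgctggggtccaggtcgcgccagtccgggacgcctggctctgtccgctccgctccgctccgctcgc
Hey2, chr10:30842734-30843033, minus strand: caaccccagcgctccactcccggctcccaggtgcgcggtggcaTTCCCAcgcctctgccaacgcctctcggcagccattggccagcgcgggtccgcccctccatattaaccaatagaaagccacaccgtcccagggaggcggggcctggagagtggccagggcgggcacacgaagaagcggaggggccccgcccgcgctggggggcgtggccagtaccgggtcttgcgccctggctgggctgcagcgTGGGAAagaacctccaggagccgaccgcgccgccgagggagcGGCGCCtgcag
Id2, chr12:25096043-25096342, minus strand: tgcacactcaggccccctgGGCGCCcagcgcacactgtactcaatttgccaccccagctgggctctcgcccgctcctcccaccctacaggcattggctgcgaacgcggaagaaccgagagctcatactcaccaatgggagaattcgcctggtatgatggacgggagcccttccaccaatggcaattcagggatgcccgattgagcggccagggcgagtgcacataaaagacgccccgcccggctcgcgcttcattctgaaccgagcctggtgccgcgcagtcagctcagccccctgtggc
Id3, chr4:136143572-136143871, plus strand: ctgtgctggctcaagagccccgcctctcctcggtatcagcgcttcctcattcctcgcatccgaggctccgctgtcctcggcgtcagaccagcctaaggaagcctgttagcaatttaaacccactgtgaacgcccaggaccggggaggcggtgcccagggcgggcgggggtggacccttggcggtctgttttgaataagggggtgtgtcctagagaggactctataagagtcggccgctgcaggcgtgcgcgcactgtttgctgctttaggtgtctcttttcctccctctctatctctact

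TGGGAA occurred 2 times in the promoter of Hes5, starting 226 and 82 bases before the gene start, and 2 times in that of Hey2, starting 207 and 3 bases before it. All 4 of these belong to the longer form GTGGGAA, which overlaps the core. Of 32851 mouse promoters of the same length, 25.6% hold TGGGAA and 6.38% hold GTGGGAA. The promoter of Id4 held TGGGAA once, and those of Nrarp, Id2 and Id3 held it nowhere in the window. GGCGCC occurred 4 times in the promoter of Hes5 and once each in those of Hey2, Id2 and Id4, against 11.9% of all promoters with at least 1. Nrarp had a CACGNG site starting 108 bases before the gene start (27.5% of all promoters) and 2 copies of CACNAG, the N-box of Hes proteins, which Id2 and Id4 held once each (42.5%). The Tcf/Lef core CTTTGA lay in the promoter of Id4 alone among the 6, starting 35 bases after the gene start (16.0% of all promoters). The 6 promoters had a median GC content of 67.7%, against 52.7% over all promoters. These matches describe letters and show no binding.

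Each array held 43020 spots for genes, of which 65.8% to 67.9% on the mutant arrays and 68.7% to 70.1% on the control arrays were well above background, and 0 were saturated. Levels below are log2 of the background-subtracted signal over the array's own 75th percentile, which was 1207 to 1380 in mutants and 1446 to 1833 in controls. All 12 markers of dorsal pallium and apical progenitors, Emx1 and Pax6 among them, passed the filter of at least 3 arrays well above background. Of these 12, 0 passed the adjusted test in limma, and 3 were higher and 3 lower at an unadjusted p under 0.05, namely the radial glial genes Fabp7 (1.39), Pax6 (0.33) and Vim (0.23) and the pallial transcription factors Emx2 (-0.92), Emx1 (-0.81) and Lhx2 (-0.58), as log2 differences, mutant minus control. Over all genes, 9.5% were higher and 7.44% lower at that threshold. The groups did not overlap for the 6 markers named or for Prom1, against 24.9% of all genes, and Hes5 is itself on this list. Relative to the control mean, mutant 3 had the lowest median of cortical hem markers (-0.82) and control 3 the lowest of subpallial markers. For the hem markers Bmp6 and Rspo2, however, mutant 3 lay within the control range. The median of 8 of 9 subpallial markers (Nkx2-1 was under the filter) was 1.42, 0.88 and 1.97 in the mutants, with 1.11, 0.87 and -2.15 in the controls. Slide 1 held mutant 1 and control 1, and slide 2 held the other 4 arrays. The labels place each array's RNA in a single embryo, and with 3 arrays in each group their number limits the precision of every value.

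Every array detected the probes of the 10 genes above background. In limma, 0 of the 10 passed an adjusted p of 0.05, against 0.0332% of all genes tested. At an unadjusted p under 0.05, 1 of the 10 was higher in the mutants (Id2) and 0 were lower, against 16.9% of all genes (9.5% higher and 7.44% lower). With median centring of the arrays in place of the 75th percentile, 0 were higher and 2 were lower (Hes1 and Hey1) at that threshold. Over all 21067 rows, 3427 reached it with median centring, where the median difference over all rows was -0.06. The groups did not overlap for 3 of the 10, with Id2 higher and Hes1 and Hey1 lower in the mutants, while 24.9% of all genes did not overlap (13% higher and 11.9% lower). These shares lie near the background. The difference, mutant minus control, was negative for 6 and positive for 4 of the genes, with a median of -0.09 against 0.02 over all genes. Hes1, Hes5, Hey1 and Heyl had differences between -0.30 and -0.11, and Hey2 had one of -0.78. In an RNA extract of whole tissue, fewer cells of a type and less RNA per cell cannot be told apart.

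**Figure D1:**
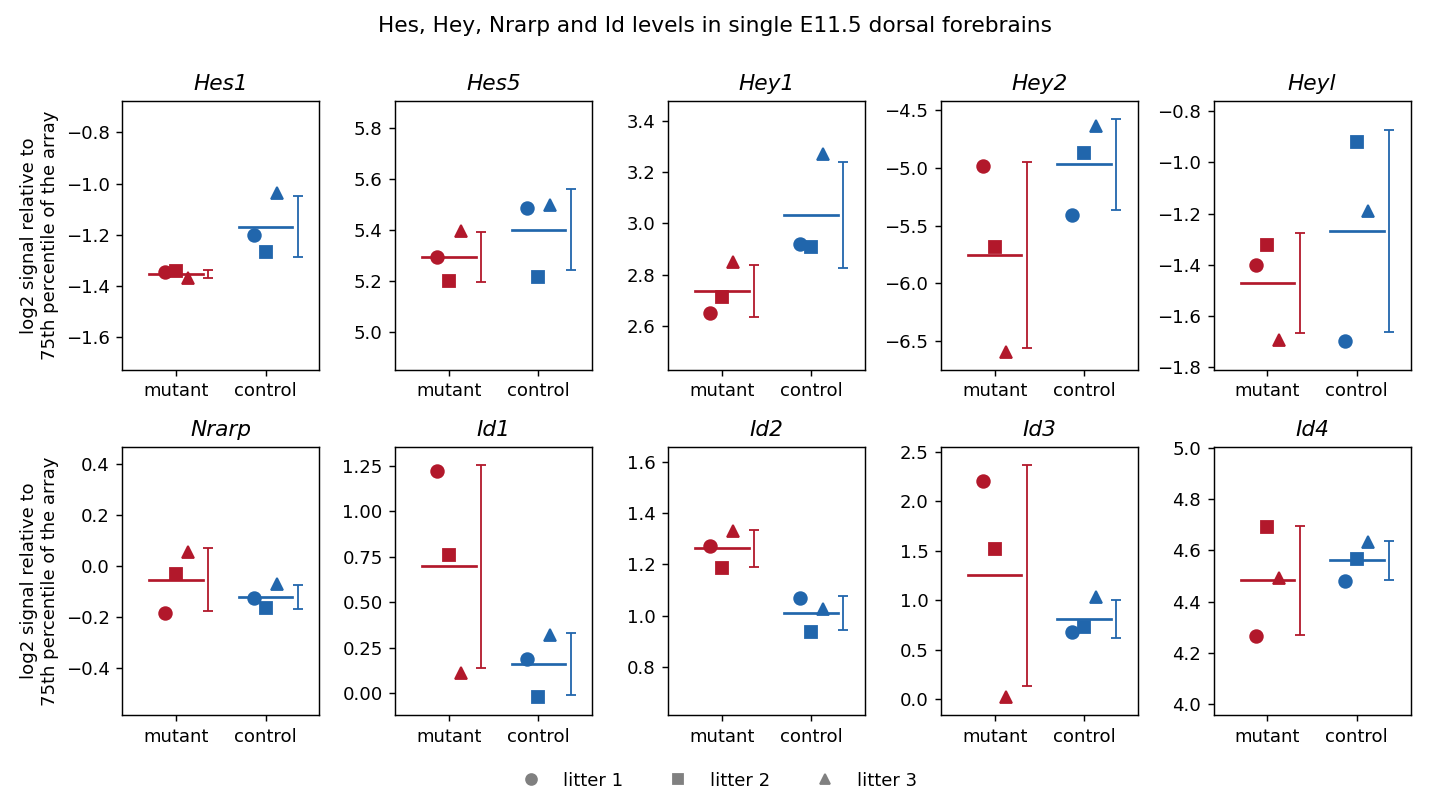
Level of each gene in the 3 mutant (red, left) and 3 control (blue, right) embryos, as log2 signal relative to the 75th percentile of the array, with the group mean as a horizontal line, the SD as an error bar and the litter as the symbol. Each panel has its own range: Hes1 mutants lie within 0.03 of each other, whereas Id3 mutants run from 0.02 to 2.21.

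Hes1, a Notch effector whose protein represses proneural genes in radial glia, was at -1.34, -1.34 and -1.37 in the mutants, with -1.20, -1.27 and -1.03 in the controls. All 3 mutants lay below all 3 controls, and the mutants were nearly level with each other. The difference of -0.18 (SE 0.08, 95% interval -0.39 to 0.02) missed the threshold (limma, adjusted p = 0.337). Its probe spans 30067820 to 30067879 on chromosome 16 (mm9, as for all probes below). The difference was -0.12 without control 3, the highest of the 6.

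Hes5, a direct Notch effector in cortical precursors whose promoter with its pair of Rbpj motifs is shown above, was at 5.29, 5.20 and 5.39 in the mutants, with 5.49, 5.22 and 5.50 in the controls. The groups overlapped, because control 2 was nearly as low as the lowest mutant. The difference was -0.11 (SE 0.11, limma, adjusted p = 0.652), and its 95% interval ran from -0.37 to 0.16. It was -0.20 without control 2, and -0.06 without mutant 2, control 1 or control 3. The Hes5 probe lies on chromosome 4 from 154336347 to 154336406 (mm9).

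Hey1, a Hes-related repressor that also keeps neural precursors undifferentiated, was at 2.65, 2.71 and 2.85 in the mutants, with 2.92, 2.91 and 3.27 in the controls. The highest mutant lay just below the lowest control, and control 3 stood above the rest. The level was thus 1.23-fold lower in mutants (log2 difference -0.30, SE 0.13, limma, adjusted p = 0.31), which did not pass the test. With litter as a block the adjusted p was 0.191 in limma, and without control 3 the difference was -0.18. Its probe is on chromosome 3 from 8663432 to 8663491 (mm9).

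Hey2, known above all from arteries and the heart, had a dim probe, whose processed signals were 41.7, 26.8 and 12.5 in the mutants, against 43.3, 50.6 and 58.1 in the controls. On the log2 scale these were -4.98, -5.69 and -6.59 in the mutants and -5.40, -4.87 and -4.64 in the controls. Mutants 2 and 3 lay below all controls, while mutant 1 lay among them. The difference of -0.78 (SE 0.43, limma, adjusted p = 0.415) shrank to -0.10 with normexp background correction and was -1.17 without mutant 1 and -0.36 without mutant 3. The probe is on chromosome 10 from 30552729 to 30552788 (mm9).

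Heyl, a further Notch target known from vascular smooth muscle and brain, was at -1.40, -1.32 and -1.69 in the mutants, with -1.70, -0.92 and -1.19 in the controls. Control 1 was the lowest of the 6 embryos, and the groups overlapped (difference -0.20, SE 0.22, limma, adjusted p = 0.673). The difference was -0.42 without control 1 and -0.03 without control 2. Its probe lies on chromosome 4 from 122926975 to 122927034 (mm9).

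Nrarp, the feedback inhibitor, was at -0.19, -0.03 and 0.06 in the mutants, with -0.12, -0.16 and -0.07 in the controls. The mutants spread to both sides of the controls. Its difference of 0.07 (SE 0.09, limma, adjusted p = 0.729) had a 95% interval from -0.15 to 0.28 and was -0.021 with median centring of the arrays, so that no direction holds for it. The probe is on chromosome 2 from 25038038 to 25038097 (mm9).

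**Figure D2:**
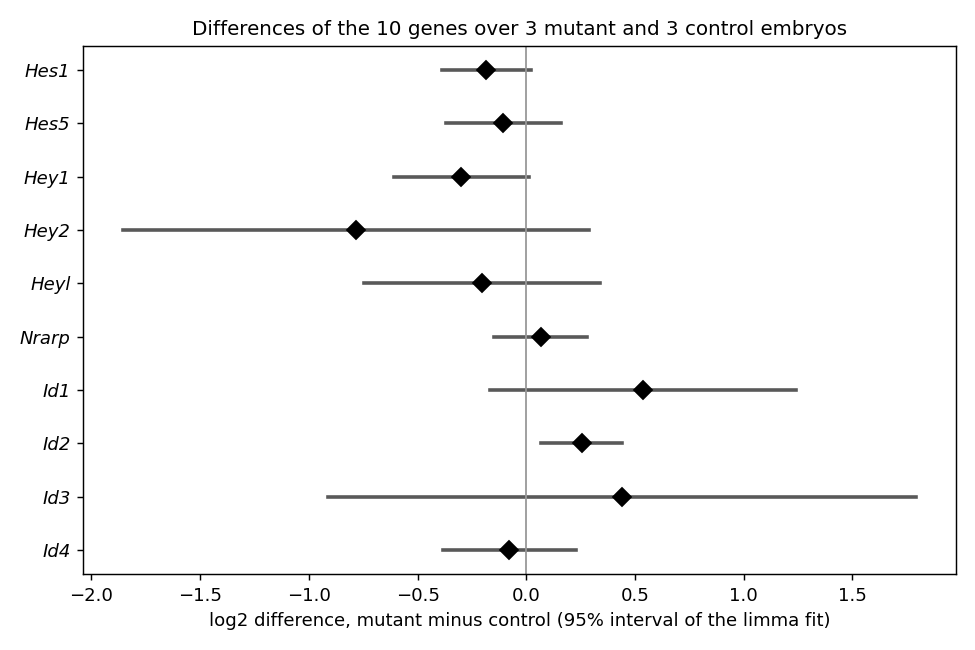
Difference of each gene, mutant minus control, on the log2 scale (diamonds) with the 95% interval of the limma fit (bars). The interval of Id2, from 0.07 to 0.44, is the one that leaves out 0 before adjustment over all genes, and those of Hey2 and Id3 are the widest.

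Id2, which in neural precursors opposes proneural factors, was at 1.27, 1.19 and 1.33 in the mutants, with 1.07, 0.94 and 1.03 in the controls. All 3 mutants lay above all 3 controls with a gap between the groups, and the SD was 0.07 within each group. The level was 1.19-fold higher in mutants (log2 difference 0.25, SE 0.08), but this missed the threshold (limma, adjusted p = 0.215, and 0.187 with litter as a block). Before scaling, the processed signals overlapped, at 3185, 3145 and 3036 in the mutants, with 3843, 2831 and 2943 in the controls, so that the separation of the groups rests on the scaling of the arrays, whose 75th percentile was lower on every mutant array than on any control array. With median centring in its place the difference was 0.17 and did not reach an unadjusted p of 0.05, and with quantile normalization it was 0.27. The probe lies on chromosome 12 from 25778904 to 25778963 (mm9).

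Id4, expressed in dividing neural precursors of the early cortex, was at 4.26, 4.69 and 4.49 in the mutants, with 4.48, 4.57 and 4.63 in the controls. The mutants held both the lowest and the highest of the 6 values. The difference was -0.08 (SE 0.12, 95% interval -0.38 to 0.23, limma, adjusted p = 0.782), and it was 0.031 without mutant 1. The Id4 probe is on chromosome 13 from 48358668 to 48358727 (mm9).

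Id1, a gene that responds to Bmp signals and is also active in blood vessels, was at 1.22, 0.76 and 0.11 in the mutants, with 0.19, -0.02 and 0.32 in the controls. Mutants 1 and 2 exceeded every control, and mutant 3 lay within the control range. The difference was 0.54 (SE 0.29, limma, adjusted p = 0.399), with 0.27 without mutant 1 and 0.83 without mutant 3. The probe is on chromosome 2 from 152563083 to 152563142 (mm9).

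Id3, likewise a Bmp-responsive gene, differed more among the mutants than any other of the 10, at 2.21, 1.52 and 0.02 in the mutants, with 0.67, 0.72 and 1.03 in the controls. Mutants 1 and 2 lay above all controls and mutant 3 below all of them. The SD was 1.12 in mutants and 0.19 in controls, and the difference of 0.44 (SE 0.55, limma, adjusted p = 0.716) was smaller than its error. It was 1.06 without mutant 3 and -0.039 without mutant 1, so that single embryos set its size and sign. The probe spans 135700075 to 135700249 on chromosome 4 (mm9).

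Id1 and Id3 were both highest in mutant 1 and lowest in mutant 3 among the mutants, and so was Hey2. The same order was seen in the medians of markers of cells at or beyond the margin of the pallium. It was also seen in those of endothelial, microglial and erythroid markers, given below, so it is not particular to the margin. Relative to the control mean, 9 of 11 cortical hem markers had a median of 0.95, 0.67 and -0.82 in the mutants, with -0.30, -0.12 and 0.34 in the controls. The summed level of these markers, as log2 of the sum of their relative signals, ran from -0.24 to 3.67 in mutants and from 2.31 to 3.04 in controls, with Wnt2b and Wnt3a under the filter. Of the hem markers, Bmp6 and Rspo2 were well above background in 3 of 3 mutants and 1 of 3 controls. These 2 passed the filter through the mutants, and their values count in the median and the sum. Neither was computed without them, so the size of the hem values is not firm. The median of 10 of 10 markers of the meninges and head mesenchyme was 1.04, -0.25 and -0.72 in the mutants, with 0.14, 0.00 and -0.19 in the controls (summed level 3.86 to 5.43 in mutants and 4.32 to 4.90 in controls). Whether these cells have a part in the levels of Id1, Id3 and Hey2 was not tested.

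Choroid plexus markers (7 of 10, with Ttr, Kl and Cldn2 under the filter) had medians of 1.79, 0.69 and -0.18 in the mutants, with 0.04, 0.06 and -0.10 in the controls. Their summed level ran from 1.22 to 2.08 in mutants and from -0.10 to 1.57 in controls. The lowest sum was that of control 3, where Otx2 was at -2.77, against 0.92 and 1.04 in controls 1 and 2. Otx2 was the brightest of the 7 in every other embryo, so the sum mostly follows this gene. Of the 7, 5 had positive and 2 negative differences, and 0 passed the adjusted test in limma. Sostdc1 was higher in every mutant than in any control. Enpp2 was lower in every mutant, at -1.09, -1.63 and -2.05 against -0.82, -0.81 and -0.96 in the controls. Enpp2 alone reached an unadjusted p under 0.05 in limma, against 16.9% of all genes. The 13 of 13 endothelial and mural markers, which bear on Hey2, Heyl and Id1 as vessel genes, spread less, at 0.24, 0.02 and -0.29 in the mutants, with -0.12, 0.12 and 0.00 in the controls (summed level 2.82 to 3.44 in mutants and 3.12 to 3.37 in controls). Of these 13 markers, 0 reached an adjusted or an unadjusted p of 0.05 in limma, against 16.9% of all genes at the unadjusted threshold. Bmp6, a ligand made in the hem, was at -3.12, -3.33 and -6.55 in the mutants, with -7.73, -7.57 and -6.34 in the controls, well above background in 3 of 3 mutants and 1 of 3 controls. Other hem markers lay the other way: Bmp7 was at 0.14, -0.29 and -1.94 in the mutants, with 0.23, 0.26 and 0.66 in the controls. Wnt8b was at 0.48, -0.12 and -6.15 in the mutants, with 0.54, 0.86 and 1.35 in the controls, so that both were lower in each mutant than in any control, and lowest in mutant 3. Microglial and erythroid markers (8 of 8 measured in each list) had negative differences throughout, with 0 past the adjusted test in limma. At an unadjusted p under 0.05 in limma, 1 microglial marker was lower, against 7.44% of all genes. The microglial median was 0.02, -0.41 and -0.42 in the mutants, with 0.13, 0.02 and -0.15 in the controls. The erythroid median was 0.07, -0.0007 and -0.92 in the mutants, with -0.04, -0.05 and 0.09 in the controls.

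**Figure D3:**
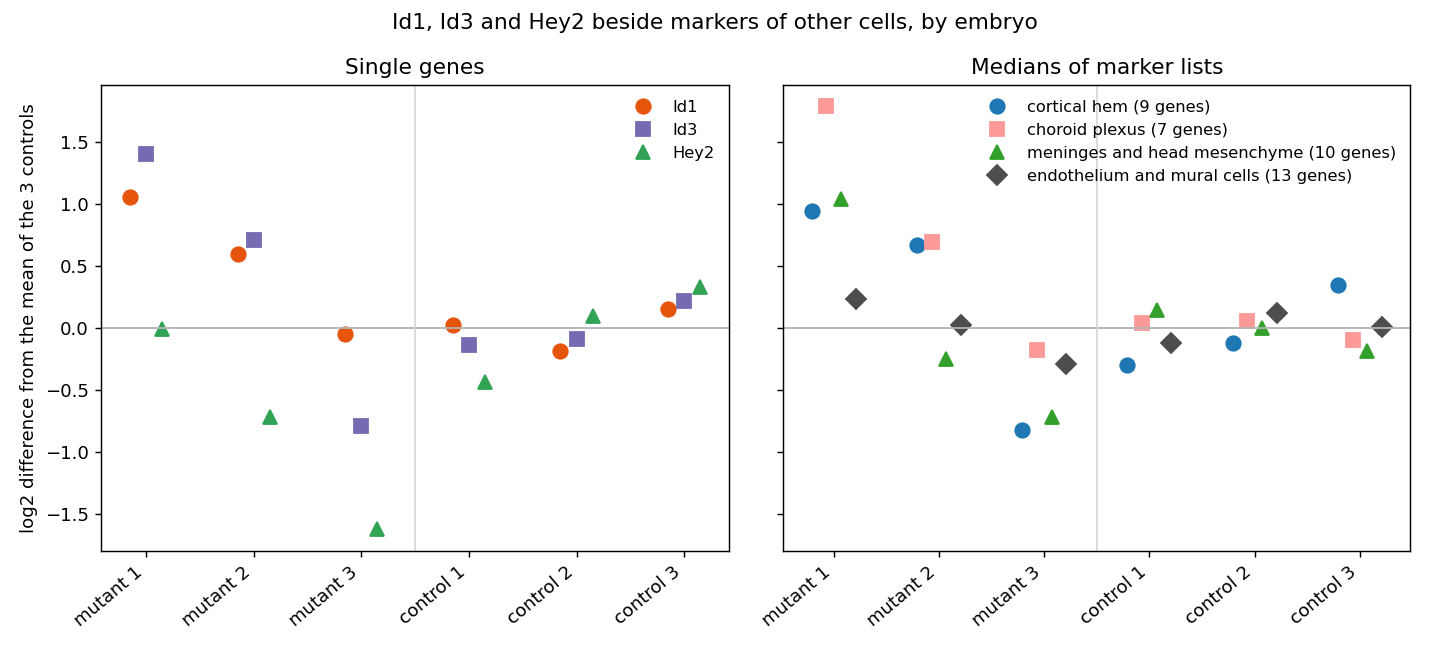
Log2 difference from the mean of the 3 controls in each embryo, for Id1, Id3 and Hey2 (left) and for the medians of 4 marker lists (right), with the 3 mutants left of the 3 controls. Mutant 1 is the highest and mutant 3 the lowest mutant in every gene and list shown, and Hey2 differs from Id1 and Id3 in that no mutant exceeds the highest control. The hem list counts Bmp6 and Rspo2, which passed the filter through the mutants.

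Within litters, the mutant was lower than its control littermate in all 3 litters for Hes1, Hes5 and Hey1, and higher in all 3 for Id2. This is 4 of the 10 genes, against 47.4% of all genes with the same sign in every litter (26.1% higher and 21.3% lower). Hes1 differed by -0.14, -0.08 and -0.33 in litters 1, 2 and 3, Hes5 by -0.19, -0.02 and -0.10, and Hey1 by -0.27, -0.20 and -0.42. Id2 had the most even differences of the 10 genes, with 0.20, 0.25 and 0.31. Hey2 (0.42, -0.82 and -1.96) and Heyl (0.30, -0.41 and -0.50) were higher in the mutant of litter 1 and lower in those of litters 2 and 3. Id1 (1.03, 0.78 and -0.21) and Id3 (1.54, 0.80 and -1.01) were higher in the mutants of litters 1 and 2 and lower in that of litter 3.

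**Figure D4:**
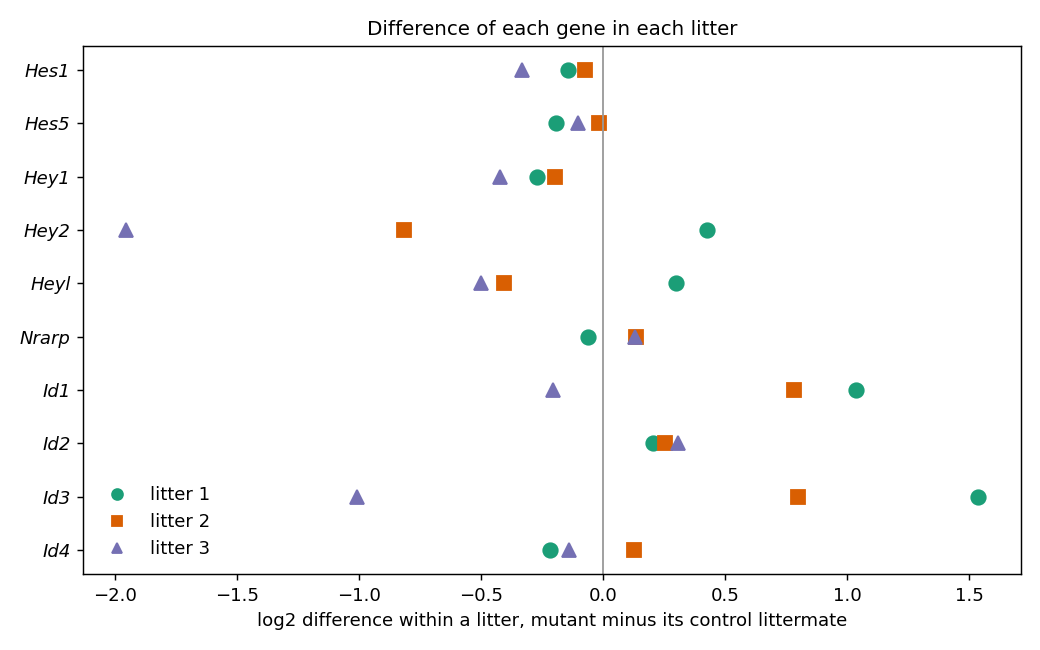
Log2 difference of each gene between the mutant and the control of the same litter, with a symbol and colour for each litter. The 3 litters lie on the same side of 0 for Hes1, Hes5, Hey1 and Id2 and spread over both sides for the other 6 genes, most widely for Id3 (-1.01 to 1.54) and Hey2 (-1.96 to 0.42).

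Slide 1 holds litter 1 alone, so its differences are those of litter 1. Within slide 2 the differences were -0.21 for Hes1, -0.06 for Hes5, -0.31 for Hey1 and 0.28 for Id2, in the same directions as in slide 1. Those of Hey2 (-1.39), Heyl (-0.45), Id3 (-0.11) and Nrarp (0.13) had the opposite sign to slide 1, while Id1 (0.29) and Id4 (-0.01) kept the sign they had in slide 1. With slide as a block, the adjusted p-values in limma were 0.264 for Hey1 and 0.202 for Id2. Whether the differences themselves differ between litters or slides was not tested.

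Upstream of the Hes and Hey genes, all 31 genes of the Notch core list were measured and 0 passed the adjusted test in limma, while 4 were higher and 1 was lower at an unadjusted p under 0.05 (median difference 0.05, and 0.02 over all genes). Over all genes 16.9% reached that unadjusted threshold (9.5% higher and 7.44% lower), and the 5 of 31 lie near that share. The ligand Dll3, which acts within the cell that makes it and dampens Notch, was at 2.54, 2.72 and 2.83 in the mutants, with 2.23, 2.33 and 2.27 in the controls (difference 0.42, SE 0.10, limma, adjusted p = 0.168). The ligand Jag1 lay the other way, at -0.39, -0.12 and -0.85 in the mutants, with 0.14, 0.17 and 0.18 in the controls (difference -0.62, SE 0.19, adjusted p = 0.216). The ligand Jag2 had a difference of 0.34 and Numbl, a relative of the Notch inhibitor Numb, of 0.30, and the groups did not overlap for either. Ncstn, a subunit of gamma-secretase, completed the 5 with 0.34.

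Of 7 other Hes-type repressors, 4 passed the filter, and Hes3, Helt and Bhlhe41 did not. At an unadjusted p under 0.05 in limma, 2 were higher and 1 was lower in the mutants, against 9.5% and 7.44% of all genes. The adjusted test was passed by 0 (median difference 0.23). Hes6, a family member found in differentiating neurons where it opposes Hes1, was at 3.49, 3.64 and 3.69 in the mutants, with 3.37, 3.37 and 3.38 in the controls. All 3 mutants lay above the controls, whose values were almost equal (difference 0.24, SE 0.08, limma, adjusted p = 0.23). Bhlhe40 was lower in every mutant than in any control (difference -0.66, adjusted p = 0.221), Hes2, a dim probe, had a difference of 0.90 with overlapping groups, and Hes7, the segmentation clock gene, one of 0.22.

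Of the proneural activators and E proteins that Hes and Id proteins act on, 15 of 16 were measured (median difference 0.18). In limma 0 passed the adjusted test. At an unadjusted p under 0.05, 2 were higher and 1 was lower, against 9.5% and 7.44% of all genes. The median rested on single embryos, at 0.42 without mutant 1, 0.012 without mutant 2, -0.016 without mutant 3, 0.078 without control 2 and 0.0084 without control 3. Relative to the control mean, the median of this list was -0.11, 0.22 and 0.41 in the mutants, with 0.01, -0.03 and 0.05 in the controls. Neurog1, a proneural factor of the dorsal forebrain, had a difference of 0.51 (SE 0.15, adjusted p = 0.211) and Neurod4 one of 0.76 (SE 0.24, adjusted p = 0.227), each with all mutants above all controls. Tcf4, an E protein and so a direct partner of Id proteins, was lower in each mutant than in any control (difference -0.43, SE 0.14, adjusted p = 0.225). Neuronal markers had positive differences in 10 of 10 genes (median 0.33). In limma 0 of these passed the adjusted test and 5 reached an unadjusted p under 0.05, against 9.5% of all genes higher at that threshold. The neuronal list median was 0.05, 0.48 and 0.58 in the mutants, with 0.09, 0.00 and -0.08 in the controls.

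Among 14 co-repressors that Hes and Hey proteins can recruit, 0 passed the adjusted test in limma and 2 were higher at an unadjusted p under 0.05 (median difference 0.01, with 9.5% of all genes higher at that threshold). These were Runx1t1 (difference 0.72, adjusted p = 0.188) and Cbfa2t3 (0.78, adjusted p = 0.233), repressors of the ETO family, and the groups did not overlap for either. The Groucho genes Tle1 (1.0, with control 3 the lowest embryo) and Tle4 (-0.16) had overlapping groups. Of the Bmp and Smad list, upstream of the Id genes, 23 of 26 genes were measured and 0 passed the adjusted test (median difference 0.03). At an unadjusted p under 0.05 in limma 3 were higher, with 9.5% of all genes higher at that threshold. However, 1 of these 3 was Bmp6, which passed the filter through the mutants, so its p-value is no support for a difference. The median was 0.17 without control 1, 0.14 without mutant 3, 0.062 without control 3, 0.020 without mutant 1, 0.011 without mutant 2, 0.16 with normexp and -0.055 with median centring, so that no direction holds for it. Beside Bmp6, the genes higher at the unadjusted threshold were the receptor Bmpr1b (0.51, adjusted p = 0.188) and the secreted Bmp modulator Bmper (0.69, adjusted p = 0.226). The groups did not overlap for either. Those of Bmp6 overlapped, and no fold is given for it because it passed the filter through the mutants. The antagonist Nog (0.48) had overlapping groups, and Bmp7 was the gene of this list that was lower in every mutant than in any control (-1.08, adjusted p = 0.376). The inhibitory gene Bambi, the antagonist Grem1 and Smad9 did not pass the filter.

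Likeness of profile was measured as the mean absolute difference between levels over the 6 embryos, after each gene's own mean was taken off. Among the 10 genes, Hes1 and Hes5 were each nearest to the other (0.09) and Hey1 lay nearest to Hes1 (0.09), while Id1 and Id3 were each nearest to the other (0.27). Id2 and Nrarp were also each nearest to the other (0.095), and Id4 lay nearest to Nrarp (0.11), so near profiles crossed the families. Heyl lay nearest to Hes1 (0.21) and Hey2 nearest to Heyl (0.43). Over all named genes with at least as wide a range, the nearest was Mapk1ip1l for Hes1 (0.02), Tbx2 for Hey1 (0.03), Jam2 for Id2 (0.03), Pygl for Id1 (0.09), Tmem132c for Hey2 (0.11) and Rax, a homeobox gene of the eye field, for Id3 (0.22). The other 4 genes had nearest profiles at 0.02 to 0.08, namely Iba57 for Hes5, Pla2g2c for Heyl, Maco1 for Nrarp and Ptbp2 for Id4. Distances are small where levels vary little, as for Hes1 and Nrarp. The Rax probe was dimmer than that of Hey2 in each embryo. It was at -5.93, -6.82 and -8.61 in the mutants, with -6.98, -7.46 and -6.99 in the controls.

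In the authors' deposited table, made from the same 6 arrays, the log2 ratio of mutant over control was -0.23 for Hes1, -0.09 for Hes5, -0.31 for Hey1, -0.52 for Hey2 and -0.29 for Heyl. In the authors' deposited table it was 0.05 for Nrarp, 0.47 for Id1, 0.31 for Id2, 0.48 for Id3 and -0.06 for Id4. The sign was thus the same as in the fit used here for each of the 10. The fdr in the authors' deposited table was 0.0745 for Id2 and 0.126 for Hey1, and it is NA for 4 of the 10 genes (Hes1, Hes5, Nrarp and Id4).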

How the data were processed

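Total RNA of 6 single embryos was labelled with Cy3, per the labels' protocols. The deposited scanner files give each spot's intensity (linear), made with Agilent Feature Extraction 10.7.3.1 for array design 026655 and mm9, per the file headers. Background had been subtracted from the processed signal used here, without normalization between arrays. The authors' deposited table gives log2 values, a log2 ratio, a p-value and an fdr. The submitters' processing notes name limma without version or role. Column numbers of that table were not matched to titles, so columns were used by group.

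Outlier spots were left out, log2 signals of a probe were averaged and the array's 75th percentile (log2) was subtracted. Probes flagged well above background on 3 or more of the 6 arrays were kept (26849), and the brightest probe of a gene was used (21067 rows, 17091 of them named). Names came from GRCm38.p6 accessions (26581 probes) or the table's symbols. Hes1 and Id1 are named in 1 of the table's 2 symbol columns, the array vendor's. The 2 groups were fitted in limma 3.58.1 (lmFit, eBayes, R 4.3.3), two-sided, with Benjamini-Hochberg adjustment over all rows at 0.05. The fit was tested on simulated data. Tables were made with pandas 2.3.3 and numpy 2.4.6 and figures with matplotlib 3.10.9, in Python 3.11.15.

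The 10 genes and all lists were chosen with earlier results of these data known. Beside the 10, up to 4 genes of a list with the smallest p are named, with others completing a count, the gene of nearest profile for each of the 10, and genes under the filter; a gene that this rule would name is not reported here. No protein sequences were used here.

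Titles give the litter, which pairs a mutant with a control. Littermates' deviations from their group means had correlations of 0.31, 0.36 and 0.11. Those of a mutant and a control from different litters ran from -0.41 to 0.11. Litter 1 was alone on slide 1, so that litter and slide cannot be told apart for it. The alternatives were normexp background correction (offset 50, median signal), quantile normalization, median centring, no filter or all 6 arrays as the filter, probes as separate rows or averaged per gene, a block for slide or litter, trend and robust variance, the authors' log2 values and omission of each embryo in turn. Litter as a block together with trend and robust variance was added after seeing the data.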

Additional observations from a re-analysis of the deposited data

How the results depend on the processing

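Of the 10 genes, 0 passed the adjusted test in limma under any of the 18 alternatives, and 0 genes of the 5 pathway lists did. At an unadjusted p under 0.05, 2 of the 10 genes passed with normexp, with median centring, with litter as a replicate block, with trend and robust variance and with both of the last together, and 3 passed with quantile normalization and with the authors' log2 values, against 1 (Id2) in the fit reported. The 2 were Hey1 and Id2 except with median centring, where Id2 was lost and Hes1 and Hey1 passed, both lower, and the 3 were Hes1, Hey1 and Id2. Leaving out an embryo gave 0 to 3: 0 without control 2, 2 without mutant 1 (Id2 and Hey2) or control 1 (Id2 and Heyl), and 3 without mutant 3 (Id1, Id2 and Id3). For genes of the pathway lists this count was 16, Bmp6 among them, and 10 (without mutant 2, control 2 or control 3) to 23 (without mutant 1) with an embryo left out. Over all 21067 rows it was 3569 in the fit reported and 5954 with normexp. It was 3427 with median centring, 3435 with quantile normalization, 4181 with litter as a replicate block and 3726 with trend and robust variance. With the last 2 together it was 4551, and with the authors' log2 values 3482 of 21393 rows. The litter block moved none of the 10 genes across the adjusted threshold. With an embryo left out, the median of the Notch core list ranged from 0.012 to 0.095, that of the co-repressors from -0.019 to 0.060 and that of the other Hes-type genes from 0.17 to 0.30, and with median centring these were -0.033, -0.080 and 0.14.

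The sign of 7 of the 10 differences held in all 18 alternatives. Nrarp was at -0.021 with median centring. Without mutant 1, Id3 was at -0.039 and Id4 at 0.031, and with an embryo left out Id3 ranged from -0.039 to 1.06 and Id4 from -0.18 to 0.031. The cause was not tested.

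Over all genes, 7 passed (2 higher and 5 lower), against 149 with normexp (77 higher and 72 lower), 143 with trend and robust variance, 26 with the filter on all 6 arrays, 23 with median centring, 22 with the authors' log2 values, 15 with quantile normalization, 2 with probes of a gene averaged, 2 with litter as a replicate block and trend together, and 0 without a filter, with litter as a replicate block or with slide as a block. Leaving out an embryo gave 0 to 1, the 1 without mutant 1. At an unadjusted p under 0.05 there were 3569, with 5954 under normexp, 7916 without a filter, and 1912 (without control 3) to 4513 (without mutant 1) with an embryo left out. Hey2, at signals from 12.5 to 58.1, is the one of the 10 whose size the background correction moves most.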
